A study of Mus musculus with 2 samples.

Results

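The genes examined here carry the nitric oxide (NO) and cyclic GMP signal in smooth muscle, together with the phosphodiesterases that end it. They were chosen by name: every array probe whose gene name in the scanner files is Gucy1a3, Gucy1b3, Prkg1, Mrvi1, Pde5a, Pde3a, Pde1a or Pde1c. These are 8 of the 27702 gene names on the array, with 27 of its 41150 probes. The rule uses gene names only, although earlier results of these data were known when the set was drawn up.

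The levels come from 2 two-colour Agilent arrays covering the mouse genome. They set the aortic arch, labelled as prone to atherosclerosis, against the central thoracic aorta, labelled as resistant. Both RNA pools came from the same kind of animal, wild-type C57Bl/6 mice aged 16 weeks, with 6 mice (3 males and 3 females) in each pool and no treatment named in the labels. The endothelium had been flushed out with triton X-100 in both. The arch pool held the aortic root, the arch and the proximal 2 mm of the thoracic aorta, and the thoracic pool held the 6 mm that follow. Both arrays hold the same 2 pools with the dyes exchanged, so that array 1 has the arch in Cy5 and array 2 has it in Cy3. There is thus 1 pool per region, the spread between mice was not measured, no test was possible, and the figure after ± is the gap from the mean to each array, a technical error only.

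In vascular smooth muscle, NO made by the endothelium binds the haem of soluble guanylyl cyclase, which then makes cyclic GMP from GTP. Cyclic GMP activates the cGMP-dependent protein kinase, which lowers calcium release and calcium sensitivity, so that the muscle relaxes. Phosphodiesterases hydrolyse cyclic GMP and cyclic AMP and set how long the signal lasts, and those of the Pde1 family do so when bound by calcium and calmodulin, which ties them to the contracted state.

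The largest arch ratio among the 8 genes was that of Pde1c and the largest thoracic one that of Pde1a (Prkg1 with an offset of 0 and in the scanner's ratios, Mrvi1 with median centring and on array 1 alone), both of the same calmodulin-activated family, so their promoters are shown, a choice made after these values were seen. They are RefSeq sequences of build GRCm38.p6, the 250 bases before the most upstream listed start of each gene, 5′ to 3′ on the gene's strand, at chr2:80129413-80129662 (minus strand) for Pde1a and chr6:56369635-56369884 (minus strand) for Pde1c. Capitals mark CANNTG, the E-box core bound by basic helix-loop-helix factors, which reads the same on both strands.
Pde1a: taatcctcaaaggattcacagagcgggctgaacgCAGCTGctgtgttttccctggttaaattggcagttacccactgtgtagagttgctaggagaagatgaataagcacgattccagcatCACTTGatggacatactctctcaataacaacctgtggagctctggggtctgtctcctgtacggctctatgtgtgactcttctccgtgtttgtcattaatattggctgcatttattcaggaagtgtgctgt
Pde1c: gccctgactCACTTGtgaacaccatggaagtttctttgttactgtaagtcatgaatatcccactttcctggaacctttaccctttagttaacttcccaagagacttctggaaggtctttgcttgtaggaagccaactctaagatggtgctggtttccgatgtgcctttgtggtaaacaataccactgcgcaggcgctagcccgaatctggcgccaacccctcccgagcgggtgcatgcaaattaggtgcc
The window holds 2 such motifs for Pde1a and 1 for Pde1c. Promoters of 7 of the 8 genes were matched by symbol, with 15 windows in all from 250 bases before to 50 after a start; Pde3a had no entry. CANNTG was in 12 of these 15 windows and in 72.31% of all 32851 promoter windows of that length. The CArG box, the element that serum response factor binds in smooth muscle genes, was in 0 of 15 and in 1.63% of all. TGACGTCA, the cyclic AMP response element, was in 0 of 15 and in 1.79% of all. The motifs were searched on both strands, and with none of the last 2 in the 15 windows, no CANNTG there overlapped another kind of motif. A match says only that these letters are present, and no match only that they are not in this window.

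None of the 8 genes differed between the regions by the rule used here, a ratio past 1.5-fold that both arrays show in 1 direction. Of the 21367 genes with a probe well above background, 104 met the rule, which is 0.487%, with 55 (0.257%) higher in the arch and 49 (0.229%) lower; median centring in place of loess gave 28 higher and 75 lower. Of the 27 probes, 21 were clear of background in 1 region or both, on either array alike, and these kept probes are the ones counted below. Among them 0 met the rule, against 0.393% of the 30521 kept probes of the array. The other 6 were dim: 2 each of Prkg1, Pde3a and Pde1c. No spot of the 27 probes was saturated.

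**Figure D1:**
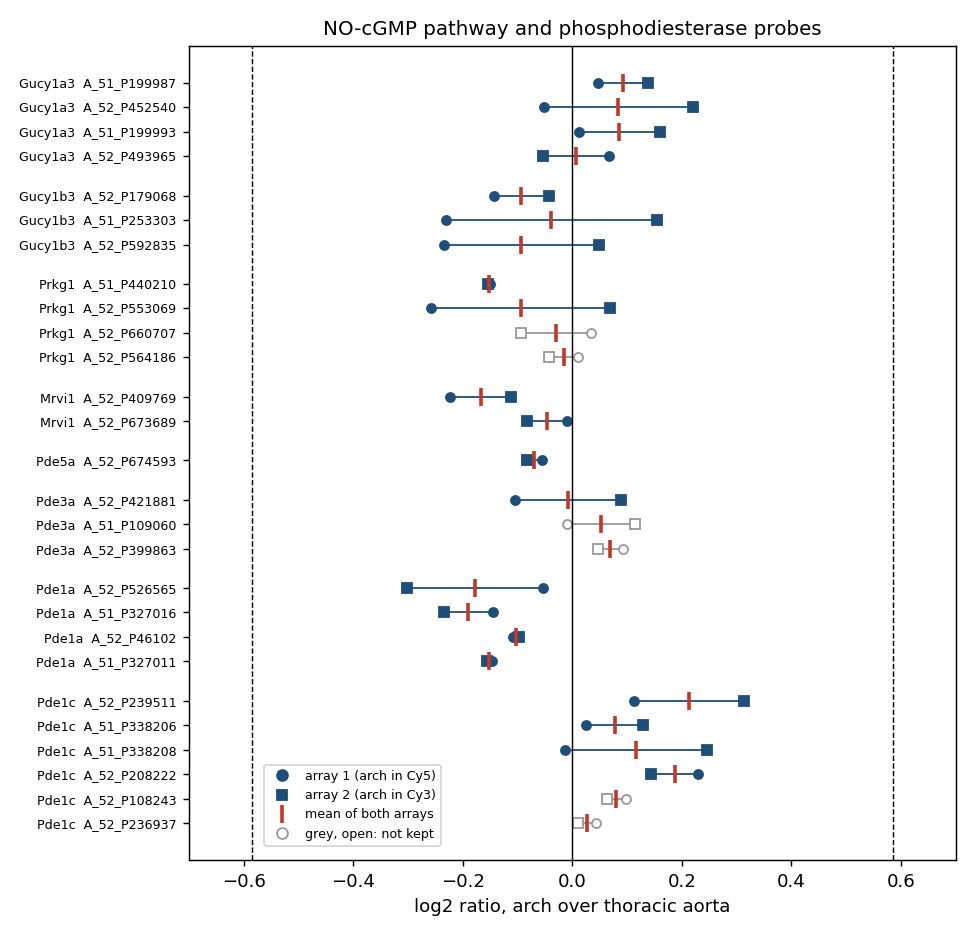
Log2 ratio of arch over thoracic aorta (x axis) for the 27 probes of the 8 genes (y axis), on array 1 (circles) and array 2 (squares), with the mean of both arrays as a red tick; grey open symbols are probes that were not kept, and dashed lines mark 1.5-fold. Every point lies inside the dashed lines, the 4 Pde1a probes lie left of 0 on both arrays, and 7 of the 8 values of the kept Pde1c probes lie right of it.

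Soluble guanylyl cyclase is a heterodimer, and the array carries both subunits found in vessel wall, under their older names Gucy1a3 (alpha, now Gucy1a1) and Gucy1b3 (beta, the haem-binding subunit, now Gucy1b1). In the RefSeq gene table no gene lies between the pair. The brightest Gucy1a3 probe (A_51_P199987) had normalised log2 levels of 8.45 in the arch and 8.41 in the thoracic pool on array 1, and of 8.43 and 8.29 on array 2. The arch was thus level with or slightly above the thoracic pool, by 0.046 and 0.14, for a mean log2 ratio of 0.092 ± 0.046 (1.07-fold, with a direction that turned to -0.048 under median centring). Of the 8 values of its 4 probes, 6 were above 0 and 2 below, and 3 of 8 were above 0 after median centring.

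The brightest Gucy1b3 probe (A_52_P179068) read 10.37 in the arch and 10.51 in the thoracic pool on array 1, and 10.40 and 10.44 on array 2. Its ratios of -0.14 and -0.043 averaged -0.093 ± 0.050, a thoracic level 1.07-fold that of the arch. Median centring gave -0.26 for it and placed all 6 values of the gene's 3 probes below 0. After loess the arrays disagreed for the other probes: A_51_P253303 gave -0.23 and 0.15, and A_52_P592835 gave -0.23 and 0.048. All 3 Gucy1b3 probes were below 0 on array 1, and 2 of 3 above it on array 2. The ratios of the alpha and beta subunits differed in sign, each less than 0.1 from 0. The first slightly exceeded the technical SD of probes of its brightness (0.078) and the second was within it (0.11). In this bulk tissue, a lower share of cells of a type and less RNA per cell would give the same ratio and cannot be told apart.

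Prkg1 encodes the cGMP-dependent kinase of smooth muscle, and Mrvi1 encodes IRAG, the protein through which that kinase inhibits the inositol trisphosphate receptor. The main Prkg1 probe (A_51_P440210) read 7.03 in the arch against 7.18 in the thoracic pool on array 1, and 7.12 against 7.27 on array 2. The thoracic pool was above the arch by the same amount on both arrays, for a mean of -0.15 ± 0.0012 (1.11-fold higher thoracic level, not past the rule). An offset of 0 gave -0.24 and the scanner's ratios -0.25. A dimmer kept probe gave -0.26 and 0.069, so its arrays differed in sign, and its mean was -0.094 ± 0.16.

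The main Mrvi1 probe (A_52_P409769) read 9.87 in the arch against 10.09 in the thoracic pool on array 1, and 10.06 against 10.17 on array 2. Both arrays placed the thoracic pool above the arch, with a mean of -0.17 ± 0.056 (1.12-fold), and the other probe had a mean of -0.046 with both arrays below 0. All 4 values of this gene were below 0, also after median centring, which moved the main probe to -0.34. Both Prkg1 and Mrvi1 exceeded the technical SD at their brightness (0.067 and 0.080), while neither reached the 1.5-fold rule.

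Pde5a, the cGMP-specific phosphodiesterase that sildenafil inhibits, has 1 probe on the array. It read 7.04 in the arch against 7.10 in the thoracic pool on array 1 and 7.07 against 7.15 on array 2. The ratio of -0.069 ± 0.0145 is a difference of 1.05-fold, close to the technical SD at that brightness (0.062). It was -0.11 with an offset of 0, -0.12 in the scanner's ratios and -0.13 with median centring. Pde3a, which hydrolyses cyclic AMP and is inhibited by cyclic GMP, had 1 kept probe of 3. It read 8.02 against 8.13 on array 1 and 8.32 against 8.24 on array 2, so the arrays gave opposite signs. Its mean was -0.0082 ± 0.097, and -0.14 under median centring. The kept probe is listed under a cDNA clone. The probe listed under the RefSeq transcript was not well above background in either region and averaged 0.053.

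**Figure D2:**
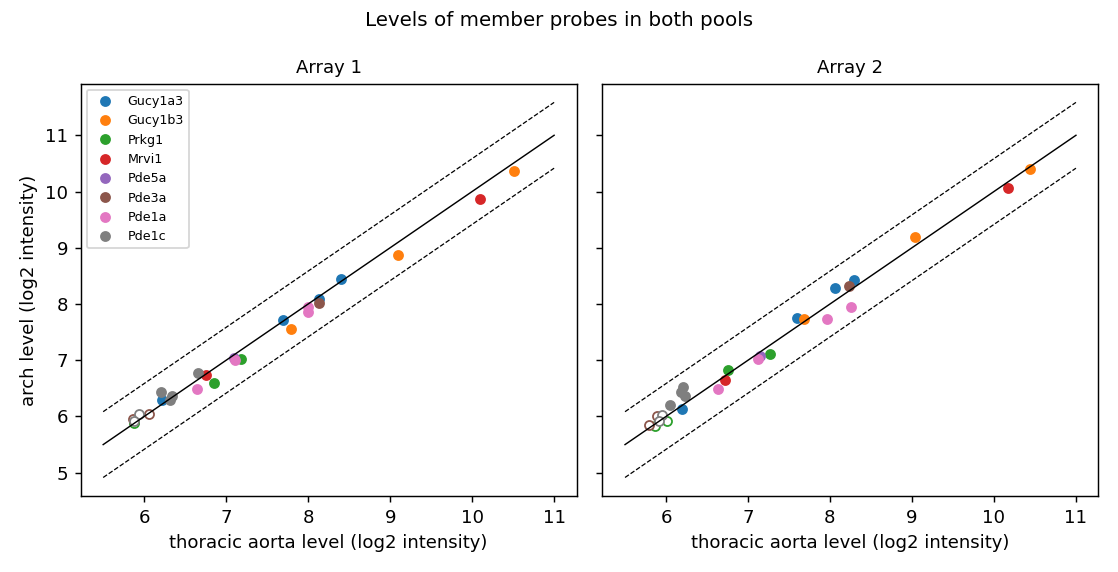
Normalised log2 intensity of the 27 probes in the thoracic pool (x axis) and in the arch (y axis), on array 1 and array 2, coloured by gene; open circles are probes that were not kept, the solid line marks equal levels and the dashed lines 1.5-fold. All points lie between the dashed lines on both arrays, from the dim probes at the lower left to the brightest Gucy1b3 and Mrvi1 probes near 10.

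The calmodulin-activated pair Pde1a and Pde1c had ratios of opposite sign. Pde1a prefers cyclic GMP as its substrate, whereas Pde1c hydrolyses both cyclic nucleotides and is known from proliferating smooth muscle cells. The brightest Pde1a probe (A_52_P526565) read 7.94 in the arch against 7.9975 in the thoracic pool on array 1, and 7.95 against 8.25 on array 2. The thoracic pool was above the arch on both arrays, by an amount that differed between them, for a mean of -0.18 ± 0.12 (1.13-fold), or -0.30 with median centring.

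The other Pde1a probes had means of -0.19 ± 0.045, -0.10 ± 0.0049 and -0.15 ± 0.0051. Their error was smaller than that of the brightest probe, and all 8 values of the 4 probes were below 0, from -0.054 to -0.30, as were all 8 after median centring. Of the 509 genes with at least 4 kept probes, 4.32% had every probe below 0 on both arrays. The mean over the 4 probes was a 1.11-fold higher thoracic level.

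The brightest Pde1c probe (A_52_P239511) read 6.77 in the arch against 6.66 in the thoracic pool on array 1, and 6.52 against 6.20 on array 2. The arch was above the thoracic pool on both arrays, for a mean of 0.21 ± 0.10 (1.16-fold), the highest of the 8 genes. The other 3 kept probes had means of 0.19 ± 0.043, 0.12 ± 0.13 and 0.078 ± 0.052. Of the 8 values of these 4 probes, 7 were above 0, and 7 were so after median centring. All kept probes above 0 on both arrays, which Pde1c did not reach, were found in 1.77% of the 509 genes. The exception was -0.013 on array 1.

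Pde1c was dim, and its ratio depended on how background was handled more than that of any other member. After subtraction of the local background its brightest probe kept 61.0 intensity units in the arch and 69.2 in the thoracic pool on array 1, and 58.6 and 29.3 on array 2. The 95th percentile of negative control spots in the same channels was 14.2, 34.9, 38.6 and 16.4. With an offset of 0 in place of 50, which shrinks ratios of dim probes less, the ratio was 0.52 ± 0.31, and in the scanner software's own ratios, deposited by the authors, it was 0.65 ± 0.39. The gene met the rule in neither, since array 1 gave 0.21 and 0.26, and neither did the other 7 genes, where 1.03% and 1.31% of all genes did. Another Pde1c probe (A_52_P208222) did meet it in the scanner's ratios, with 0.77 and 0.72, and was then the only one of 21 kept probes, where 1.18% of all kept probes did so. With the offset of 0 the same probe gave 0.59 and 0.56, the latter just short of 1.5-fold, and 0 of 21 were called against 0.891%.

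**Figure D3:**
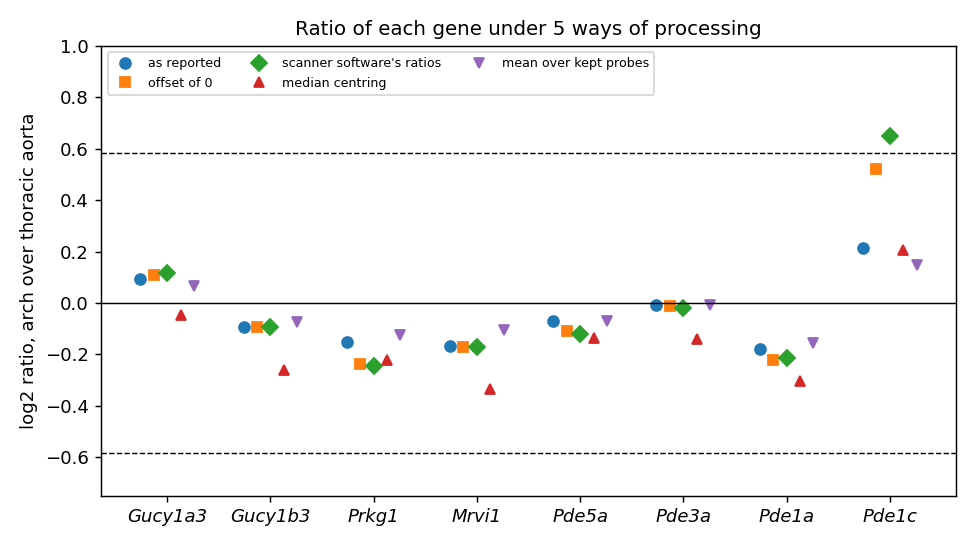
Log2 ratio of arch over thoracic aorta (y axis) of each of the 8 genes (x axis) as reported, with a background offset of 0, in the scanner software's ratios, with median centring and as the mean over kept probes; dashed lines mark 1.5-fold. Gucy1a3 lies above 0 except at -0.048 with median centring, and Pde1c moves from 0.21 to 0.52 and 0.65 while the other genes stay between the dashed lines. The rule needs both arrays past the line, so the scanner value of 0.65 for Pde1c is not a call.

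Across the 8 genes, 6 ratios were below 0 and 2 above, with a median of -0.081, beside a median of 0.0023 and 48.5% below 0 for all 21367 genes. Between the 10th and 90th percentile all genes ran from -0.099 to 0.11. Mrvi1, Prkg1 and Pde1a lay under and Pde1c over that range, at the 4.17, 5.04, 3.62 and 96.5 percentiles, while Gucy1a3, Gucy1b3, Pde5a and Pde3a lay inside it. Of the 21 kept probes, 9 were below 0 on both arrays, 5 above 0 on both and 7 of mixed sign. On array 1 alone 6 of 21 were above 0 and on array 2 alone 11. A mean larger than its own technical error was found for 14, which are those with the same sign on both arrays. The share of all kept probes of the array with the same sign on both was not computed. With median centring the members' median was -0.18, while that of all genes measured went from 0.0023 to -0.042. The shift was uneven across genes. The bright Mrvi1 went from -0.17 to -0.34, whereas the dim Pde1c went from 0.21 to 0.20. Bright genes outside the set moved too, such as Lmod1 from -0.0004 to -0.17. The members' shift was not compared with that of genes of their brightness.

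The smooth muscle markers Acta2, Tagln, Myh11, Cnn1, Smtn, Des and Lmod1 were all well above background, and 0 of 7 met the rule. Myh11, the smooth muscle myosin heavy chain, stood at -0.22 ± 0.031, Des, desmin, at -0.22 ± 0.0062, and the list's median was -0.0004 (-0.17 under median centring). That median depended on the probes and arrays used. It was -0.097 with the mean over kept probes, -0.070 on array 1 alone and -0.086 on array 2 alone. Acta2 stood at 0.024, the highest of its 5 probes, and the lowest gave -0.19. Tagln stood at 0.017 and its other probe gave -0.099. The summed normalised level of the 7 markers was 156292 and 146597 in the arch on arrays 1 and 2, and 154358 and 150707 in the thoracic pool. These sums are not on the log2 scale, so the brightest genes weigh most. Acta2 and Tagln had log2 levels of 15.67 to 15.92, and Myh11 and Des enter little. Saturation is reported for the probes of the 8 genes only. For the macrophage list, 6 of 6 ratios were below 0 with 0 called, and the sum was 22162 and 20020 in the arch and 24967 and 26532 in the thoracic pool, led by Tyrobp at -0.35, Lyz2 at -0.29 and Emr1 at -0.26.

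Some markers of fat and heart were higher in the arch by the rule. Adipoq, Plin1 and Pck1 were 3 of 6 adipocyte genes (sum 28285 and 26943 in the arch, 20481 and 21606 in the thoracic pool). Cidea, Cox8b, Cox7a1 and Dio2 were 4 of 5 brown adipocyte genes (10473 and 10048 against 6090 and 6278). Tnnt2 and Myl7 were 2 of 5 measured cardiomyocyte genes, with sums of 14454 and 14293 in the arch and 13176 and 15005 in the thoracic pool. Actc1, cardiac actin and the brightest of that list, stood at 0.055 and -0.16 on the arrays and Tnni3 at 0.10, neither called. With median centring 0 adipocyte genes and 1 brown adipocyte gene were called.

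After the detergent, 6 of 7 endothelial markers were well above background in 1 region or both, with a median of 0.020 and 0 called. Their sums were 586 and 600.1 in the arch and 539 and 576 in the thoracic pool. Vwf at 0.26 and Kdr at 0.18 had the highest ratios. Pecam1, Cdh5 and Nos3 were dim, with log2 levels of 6.06 to 6.38. Probes of the 8 genes that were not kept read 5.79 to 6.06. These levels and sums include the offset of 50, and Cdh5 was well above background in 1 region only. The fibroblast list had a median of 0.049 (-0.12 under median centring) with 0 of 6 called (Lum 0.55, Pdgfra 0.55 and Col1a1 -0.30). Another kept probe gave 0.0085 for Pdgfra and 0.0033 for Col1a1. The platelet list had a median of 0.12 with 0 of 4 called (Ppbp 0.38, Gp9 0.28 and Pf4 -0.28). In the Schwann cell and neuron list 0 of 5 were called, with S100b at 0.12 (-0.029 under median centring). The part of these cell types in the ratios of the NO-cGMP genes was not tested. Myh6, Tie1 and Gp1ba were not well above background in either region.

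The rest of the cyclic nucleotide pathway was read from 8 lists with 115 genes, of which 99 were measured. None was higher in the arch by the rule and 2 were lower, Rgs2 and Pde6h, or 2.02% beside 0.487% of all genes. Most ratios were small: 82 of 99 lay within 0.2 of 0 on the log2 scale, as did 93.1% of all genes. The size of many of these ratios depended on the processing. Where a gene is named with 1 value, another offset, the scanner's ratios or median centring may still have moved it by over 1.5 times.

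**Figure D4:**
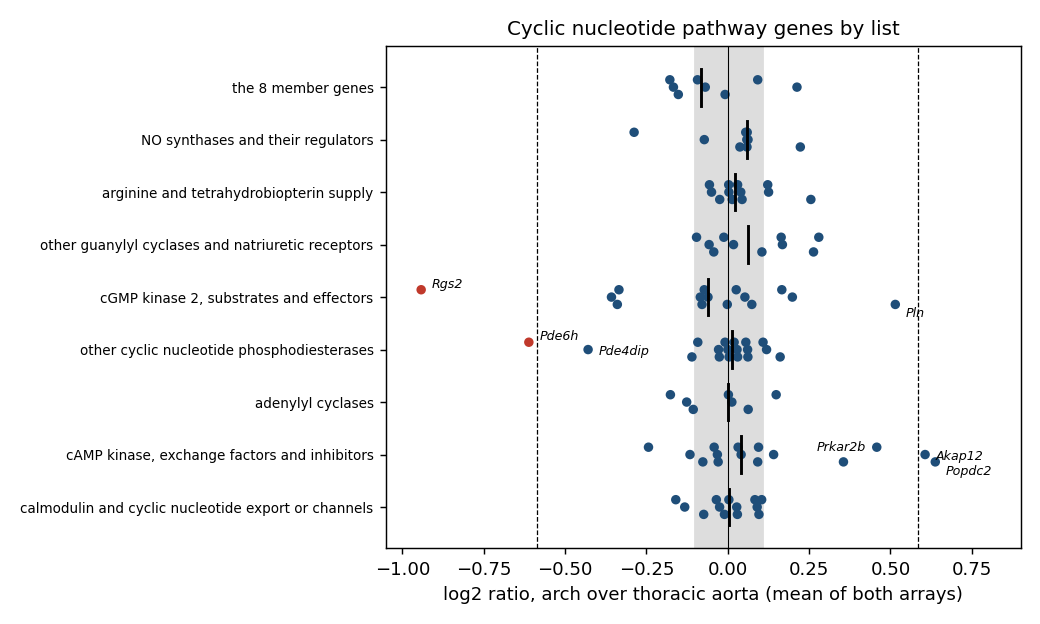
Log2 ratio of arch over thoracic aorta (x axis, mean of both arrays) of the 8 genes and of the measured genes of 8 further lists (rows), with the median of each list as a black bar, genes past 1.5-fold on each array in red, the 10th to 90th percentile of all genes in grey and dashed lines at 1.5-fold. Rgs2 at -0.94 and Pde6h at -0.61 are the red points, while Akap12 and Popdc2 lie past the line by their mean but not on each array.

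Among substrates and effectors of the kinase, Rgs2, a regulator that shortens Gq signalling and is activated by the kinase, was the gene with the largest difference. Its ratio was -0.95 on array 1 and -0.94 on array 2, a level 1.92-fold higher in the thoracic pool. A dimmer probe of the gene averaged -0.30, and the mean over both probes, -0.62, still met the rule. Of the 15 measured genes of this list, 9 were below 0 and 6 above, with a median of -0.061. Pln, phospholamban, the brake of the sarcoplasmic calcium pump, stood at 0.52 ± 0.018 and was not called. Its thoracic levels, 6.01 and 6.07, were close to those of the members' probes that were not kept. An offset of 0 gave 1.47 and the scanner's ratios 1.71, where it was called. In both it lay farther from 0 than Rgs2, at -0.96 in each.

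Near Mrvi1 in function, Itpr1, the inositol trisphosphate receptor, had ratios of -0.33 on both arrays, with its other probe at -0.26. Ppp1r12a, the targeting subunit of myosin phosphatase through which the kinase lowers calcium sensitivity, stood at -0.36 ± 0.032, with its other probe at -0.15. Its relative Ppp1r12b stood at -0.34 ± 0.016 in its brightest probe, but 1 of its 4 probes gave 0.16. None of these 3 genes met the rule. Prkg2, the other cGMP kinase gene, and Trpc6 were not well above background.

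The list of other phosphodiesterases also holds subunits and the anchoring protein Pde4dip, and its counts include them. Of its genes, 18 of 21 were measured, with a median of 0.012 (-0.0067 under median centring), 11 above 0 and 7 below. Pde6h, a subunit of the cone photoreceptor enzyme, had ratios of -0.60 and -0.62, or 1.53-fold higher in the thoracic pool. Its mean was -1.10 with an offset of 0 and -1.32 in the scanner's ratios. Its other probe averaged -0.27 and the mean over the 2 probes, -0.44, did not meet the rule. Pde4dip, an anchoring protein of Pde4d, stood at -0.43 ± 0.0185, while another of its 5 probes gave -0.041. Pde4b stood at 0.16 with another probe at -0.20, and Pde4a stood at 0.12 with another at 0.26. The cGMP-hydrolysing Pde2a and Pde9a had ratios of 0.056 (-0.035 under median centring) and 0.030, and Pde1b, the remaining Pde1 gene, 0.11 ± 0.023.

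Upstream of the cyclase, 0 of 9 genes of the NO synthase list met the rule, and 7 of 9 were above 0, with a median of 0.059 that turned to -0.018 under median centring. Nos1, Nos2 and Nos3, the neuronal, inducible and endothelial synthases, stood at 0.037, 0.059 and 0.059, and at 0.090, 0.26 and 0.30 in the scanner's ratios. The Nos1 value is that of a probe which the files list under an older clone name and which was assigned to the gene here; a further probe of the gene gave 0.032. Nostrin, which moves the endothelial enzyme off the membrane, stood at -0.29 ± 0.10, or -0.56 with an offset of 0 and -0.69 in the scanner's ratios. Cav1, whose protein binds and inhibits that enzyme, stood at 0.22 ± 0.037, or 0.049 with median centring. Dynll1, which binds the neuronal enzyme, stood at -0.072, and Nosip, another binding partner of the endothelial enzyme, at 0.062 (-0.10 under median centring). The other Nosip probe gave -0.082.

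For arginine and tetrahydrobiopterin, substrate and cofactor of these enzymes, 0 of 12 measured genes met the rule and the median was 0.022 (-0.021 under median centring). Ass1, which regenerates arginine, stood at 0.26 ± 0.088 (0.53 in the scanner's ratios), Gchfr, the feedback protein of cofactor synthesis, at 0.13 ± 0.019, and Pts, an enzyme of that synthesis, at 0.12 ± 0.0006 (-0.027 under median centring). Slc7a1, an arginine carrier, stood at -0.056.

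The natriuretic peptides act on membrane guanylyl cyclases, a source of cyclic GMP that does not need NO. Of this list 10 of 13 genes were found on the array, 0 met the rule, and the median was 0.061. Nppa, the atrial peptide, which is also a cardiomyocyte marker, stood at 0.28 ± 0.032, and Nppb, its ventricular relative, at 0.17, or 0.14 and 0.016 with median centring. The other kept probe gave 0.0078 for Nppa and -0.0086 for Nppb. Npr3, the clearance receptor, stood at 0.26 ± 0.0745 (0.51 in the scanner's ratios) and Gucy2f at 0.16, while the cyclase receptors Npr1 and Npr2 stood at -0.096 (-0.39 in the scanner's ratios) and -0.057 (-0.18 with median centring), with another Npr2 probe at 0.31. Npr1 was dim, with log2 levels of 6.08 to 6.28, and was well above background in 1 region only.

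On the cyclic AMP side, 0 of 7 measured adenylyl cyclases met the rule, with a median of 0.0020 (-0.0220 under median centring). Adcy5 stood at -0.18 ± 0.15, Adcy6 at 0.15 (-0.0003 under median centring), Adcy9 at -0.13 and Adcy7 at -0.11, the latter pair at -0.26 and -0.27 with median centring. In the list of the cyclic AMP kinase, exchange factors and inhibitors, 0 of 15 met it and the median was 0.041 (-0.068 under median centring). Popdc2, a cyclic AMP-binding membrane protein of striated muscle, had ratios of 0.51 and 0.76. Akap12, a scaffold of the kinase, had ratios of 0.65 and 0.57. Both passed 1.5-fold on 1 array only; Popdc2 was called with an offset of 0 and in the scanner's ratios. Prkar2b, a regulatory subunit, stood at 0.46 ± 0.049 and Rapgef3, the exchange factor Epac1, at 0.36 ± 0.0345.

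For calmodulin, the activator of Pde1a and Pde1c, Calm2 stood at -0.13 ± 0.0415 (-0.30 under median centring) and Calm3 at 0.028 ± 0.15 (-0.14 under median centring). In their list, which also holds the cyclic nucleotide exporters and channels, 0 of 13 measured genes met the rule and the median was 0.0034 (-0.0436 under median centring). The channel subunits Cngb1 and Cnga3 stood at 0.10 and 0.096.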

How the data were processed

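RNA of 2 pools was measured on 2 dye-swapped two-colour arrays whose scans were extracted, per the submitters' processing notes, by Agilent Feature Extraction 9.1.1.1. Per the file headers, each spot has an intensity per dye (mean signal) and a local background. A log10 ratio of the dyes was deposited by the authors as well, which the series' value table repeats, turned to arch over thoracic aorta, for 99.9% of features (tolerance 1e-06); its own scale and direction are unstated. RNA integrity numbers ran from 7.5 to 7.7 and 1 µg was labelled, per the labels.

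With limma 3.58.1 in R 4.3.3, background was corrected by normexp (offset 50) and ratios normalised by loess within each array, with control spots at weight 0. Spots flagged as outliers (20 and 4) were left out, ratios of array 2 had their sign turned, and repeat spots were averaged. Levels per pool were taken after loess and Aquantile normalisation. A probe was kept where both arrays flagged it well above background in 1 region or both, and a gene took its brightest kept probe. Technical SDs are of the ± values with their sign kept, among kept probes of similar brightness, in 20 bins. The arrays count as 1 technical replicate, so differences have no test.

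The members and gene lists were chosen with earlier results of these data known. All probes of the members are described. Of each other pathway list the genes called and the 4 with the largest ratios were named, and of cell type lists those called and up to 3 more. Nos1, Nos2, Nos3, Pde2a, Pde9a, Pde1b, Npr1, Npr2, Calm3 and the dim genes were named outside that rule, after their values were seen. Some genes picked by it are not reported here. Promoters came from a RefSeq table. The alternatives were another offset, the scanner's ratios, the value table, median centring, other filters, each array alone, the mean over probes and other folds.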

Additional observations from a re-analysis of the deposited data

How the results depend on the processing

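In every alternative run, 0 of the 8 genes met the fold rule. All 8 kept their sign except Gucy1a3 with median centring and Pde3a on array 2 alone. The genes called on the whole array went from 104 to 221 with an offset of 0, 280 in the scanner's ratios and in the value table, 246 at 1.3-fold and 24 at 2-fold. The members' median of -0.081 was -0.10 with an offset of 0, -0.11 in the scanner's ratios and the value table, -0.18 with median centring and -0.063 on array 2 alone. Of the 21 kept probes, 8 had a mean above 0, and 5 with median centring. Of the 99 other pathway genes 2 were called, 4 with an offset of 0, in the scanner's ratios and in the value table, 1 with the mean over probes, 7 at 1.3-fold and 0 at 2-fold. No paired analysis was possible because the 2 arrays hold the same 2 pools and no test was made.

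Signal over background limits Pde1c: its kept probes lie close to the negative controls, and their ratios were larger with an offset of 0. With 1 pool a region, the spread between mice was not measured.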
